A study of Homo sapiens with 22 samples.

Results

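A set of 9 genes of the extracellular protease and plasminogen system was followed through 22 lists of enriched chromatin regions from 3 human prostate cancer cell lines. The 9 genes are PLAU, PLAUR, PLAT, MMP1, MMP3, MMP9, MMP14, TIMP1 and TIMP3, of 20163 protein-coding genes annotated on the hg19 build. Each gene was taken with its body and 50 kb on either side, and every region touching that window was counted. The windows held 489 of the 871377 regions in all lists together. A region shared by the overlapping MMP1 and MMP3 windows was counted once in any total.

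PC3 is a line from a bone metastasis, NCI-H660 a neuroendocrine line and LNCaP a line of luminal character. In PC3, ChIP-seq lists were given for FOXA2 with vehicle, with 10 µM ORY-1001 for 4 h or with 0.5 µM C12 for 4 h, both inhibitors of the demethylase LSD1. JUN and FOSL1 lists were given in PC3 with negative control siRNA (siNC) or FOXA2 siRNA (siFOXA2), beside H3K27ac and ATAC-seq with vehicle. Another pair of vehicle FOXA2 lists in PC3 had no antibody label and are named unlabelled lists 1 and 2. In NCI-H660, FOXA2 was profiled with vehicle or with 10 µM ORY-1001 for 4 h, JUN with siNC or siFOXA2, and H3K4me2 and ATAC-seq with vehicle. In LNCaP, JUN was profiled with siNC or FOXA1 siRNA (siFOXA1). LNCaP_FOXA2OE, an LNCaP derivative overexpressing FOXA2, gave a FOXA2 and a JUN list with vehicle. A LNCaP_FOXA2K265R line gave a JUN list with vehicle, and its title names the lysine mutant whereas another label names LNCaP_FOXA2OE. Whether these derivatives are single clones was not given in the labels.

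Apart from the unlabelled pair, each group had 1 list, so no difference between conditions has a replicate check and no p-value was computed. The lists held 1538 to 210960 regions and no read counts, so depth is unknown. Scores were present in 20 lists and are MACS2 region scores, taken to be −log10 q-values multiplied by 10. They rank regions within a list, and scores of different lists are set side by side only as values. A control region is called kept when the treated list has a region sharing at least 1 bp with it. Any other control region is called lost. FOXA2 protein was not measured in these files, so the siRNA effect on FOXA2 itself could not be checked. As a check on the lines, 5 promoters were read. That of CHGA, a neuroendocrine granule gene, was accessible in NCI-H660 (score 555) and held no accessible region in PC3. That of SYP, a synaptic vesicle gene also used as a neuroendocrine marker, had a score of 1528 in PC3 and 392 in NCI-H660. That of INSM1 had a score of 43 in PC3 and 749 in NCI-H660. Those of FOXA2 and KRT18 had scores of 3159 and 4482 in PC3 and 1073 and 1803 in NCI-H660. So the 5 promoters set the lines apart only in part.

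PLAU encodes urokinase and PLAT encodes tissue plasminogen activator, proteases that convert plasminogen to plasmin. PLAUR is the membrane receptor of urokinase. Plasmin and the matrix metalloproteinases cut extracellular matrix, MMP1 being an interstitial collagenase, MMP3 a stromelysin, MMP9 a gelatinase and MMP14 a membrane-anchored enzyme that activates other metalloproteinases. TIMP1 and TIMP3 are tissue inhibitors of metalloproteinases. Several of these genes are textbook targets of AP-1, the dimer of JUN and FOS family proteins such as FOSL1, which binds the letters TGACTCA or the reverse complement TGAGTCA. FOXA2 is a forkhead pioneer factor.

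The stretches below carry the AP-1 letters at the places the results turn on. They are printed 5′ to 3′ along the gene's strand, with AP-1 letters in capitals. The first lies in the highest-scoring JUN region of any window (chr10:75692208-75692357, plus strand of hg19) and holds a pair of AP-1 motifs. The second lies in the siNC JUN region just upstream of the main PLAU start site (chr10:75669120-75669269, plus strand). The siNC FOSL1, siFOXA2 JUN and vehicle FOXA2 regions there overlap this JUN region, but none of them holds the whole marked motif. The FOXA2 regions there in the ORY-1001 list and in both unlabelled lists do hold it.
PLAU 21.4 kb past the start site: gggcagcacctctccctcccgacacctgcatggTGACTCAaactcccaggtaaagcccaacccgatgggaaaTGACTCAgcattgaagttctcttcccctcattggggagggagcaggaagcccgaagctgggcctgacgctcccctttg
PLAU 1.88 kb before the start site: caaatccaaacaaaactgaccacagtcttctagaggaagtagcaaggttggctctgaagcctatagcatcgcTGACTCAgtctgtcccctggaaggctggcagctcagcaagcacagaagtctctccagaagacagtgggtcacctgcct

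The last stretch is the 150 bases before the start site of TIMP1 (chrX:47441685-47441834, plus strand), which a JUN region covered. Here the capitals mark TGAGTAA, a 1-base variant of the AP-1 letters, which was searched for after the sequence had been seen. The TIMP1 and upstream PLAU stretches were also chosen after their values were seen.
TIMP1: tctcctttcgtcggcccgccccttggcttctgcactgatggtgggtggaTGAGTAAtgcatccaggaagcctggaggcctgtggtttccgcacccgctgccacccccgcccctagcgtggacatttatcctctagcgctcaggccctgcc

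In PC3 cells with control siRNA, JUN occupied most of these loci, and PLAU held the most regions. The siNC JUN list had 10 regions in the PLAU window, 5 at PLAT, 3 at MMP1, 3 at MMP9, 2 at MMP3, 1 at PLAUR and 1 at TIMP1. No JUN region lay at MMP14 or TIMP3. Of the 9 genes, 7 had a JUN region, beside 62.8% of all coding genes, so having a region at all did not set them apart. Within 10 kb windows 4 of the 9 had one, and no share of coding genes at that window is given here. The number at PLAU was higher than usual, since 1.06% of coding genes had 10 or more JUN regions in the same window. At PLAT that share was 7.35% and at MMP1 and MMP9 it was 21.6%. The members' windows were 104 to 161 kb long (median 109 kb), against a median of 127 kb over all coding genes.

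**Figure D1:**
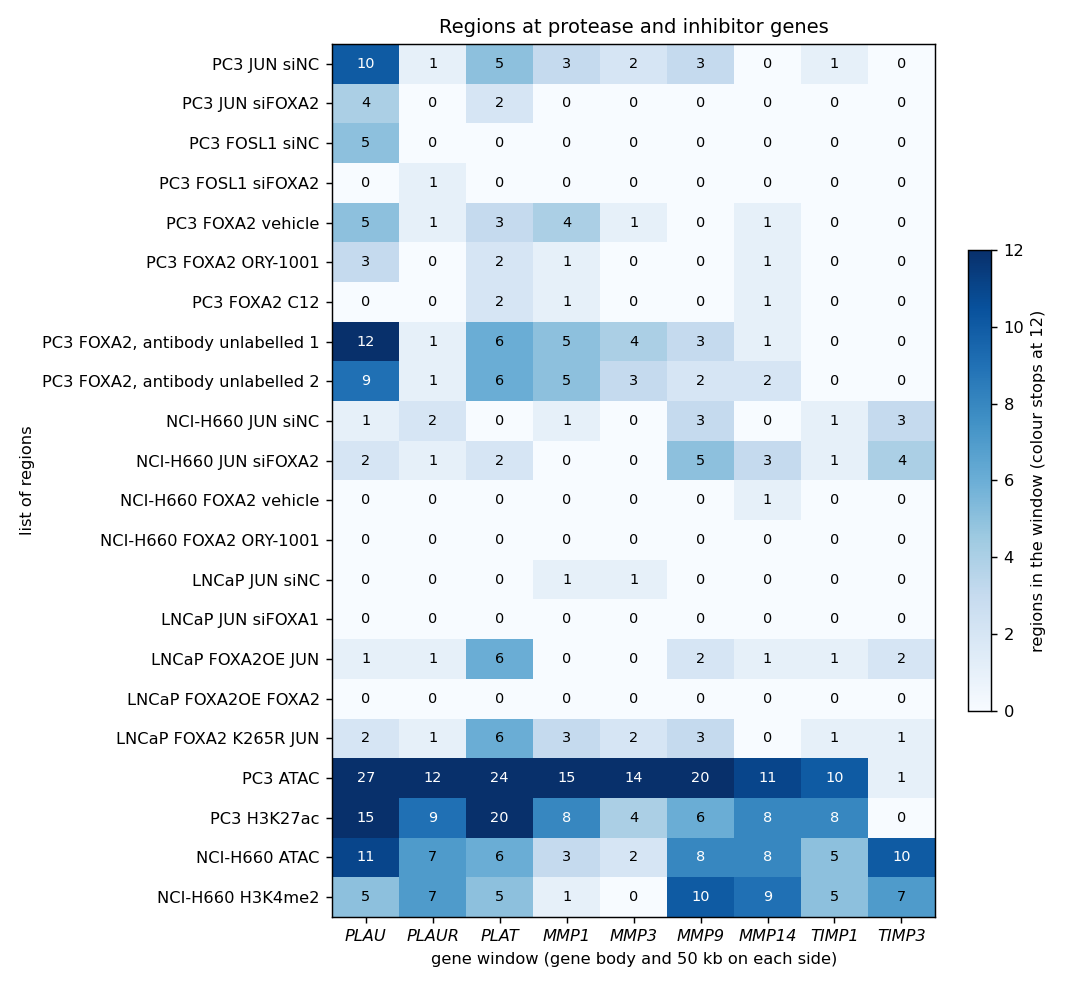
Number of regions in each gene window (columns) in each of the 22 lists (rows), with the number in each cell and the colour scale stopping at 12. PLAU has 10 JUN and 5 FOSL1 regions with siNC in PC3, whereas TIMP3 has regions mainly in NCI-H660.

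All 5 FOSL1 regions at these genes in siNC PC3 cells lay at PLAU. Only 0.149% of coding genes had 5 or more FOSL1 regions, and 17.4% had at least 1. Each of the 5 overlapped a JUN region, whereas 66.9% of the whole FOSL1 list did. FOXA2 with vehicle had 5 regions at PLAU, 4 at MMP1, 3 at PLAT and 1 each at PLAUR, MMP3 and MMP14, with none at MMP9, TIMP1 or TIMP3. Thus 6 of 9 genes had a FOXA2 region, beside 54.1% of coding genes. Within 10 kb it was 3 of 9, without a share of coding genes at that window. All 14 FOXA2 regions were found again in both unlabelled FOXA2 lists, which held a region at 7 of the 9 genes each, beside 86.5% and 82.9% of coding genes. The whole vehicle list was overlapped for 92.5% and 90.8%.

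Nearly all of this binding lay in open chromatin of PC3. All 24 siNC JUN regions overlapped an accessible region and 20 overlapped H3K27ac, a mark of active enhancers and promoters, beside 96% and 77.3% of the whole JUN list. By position, 16 of the 24 were intergenic, 4 lay within 1 kb of a start site of a member, 3 at promoters of other genes and 1 in an intron. An AP-1 motif stood within 100 bases of the centre in 16 of 24 (66.7%), beside 49.4% of the whole list. A forkhead motif, read as TNTTTNN with purines at the second and sixth base and a pyrimidine at the end on either strand, stood in 4 of 24 (16.7%), beside 43.3%. Of the 14 FOXA2 regions, 9 held the forkhead motif (64.3%, beside 77.2%) and 5 the AP-1 motif (35.7%, beside 26.3%).

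At PLAU the JUN regions were spread over about the whole window, and the 5 highest-scoring ones included those nearest the gene. The highest of all stood 21.4 kb past the start site, between PLAU and the next gene (chr10:75692033-75692507), with a score of 1674 and a FOSL1 score of 164. The next stood 1.88 kb before the main start site (chr10:75668757-75669272) at the start of an alternative PLAU transcript. It had a JUN score of 1323, a FOSL1 score of 154 and a FOXA2 score of 97. These are the places printed above with 2 and 1 AP-1 motifs.
The other JUN scores were 1121 at 23.4 kb before the start site, 821 at 11.6 kb, 745 at 4.26 kb, 349 at 16.4 kb, 232 at 34 kb and 152 at 31.3 kb before it. Past the start site they were 263 at 30.4 kb and 550 at 55.2 kb. The regions 34, 31.3 and 23.4 kb before the start site lie nearer to the start site of CAMK2G, a kinase subunit gene, and the one at 55.2 kb nearer to that of VCL, which encodes vinculin. Distance alone does not assign any of them to PLAU.

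The vehicle FOXA2 list overlapped 4 of the 10 JUN regions at PLAU, the unlabelled lists 9 and 7 of them. The vehicle list also had FOXA2 without JUN at 1 place. That place, 18.3 kb before the start site (chr10:75652428-75652742), had the highest FOXA2 score at PLAU, 386, and held a forkhead motif and no AP-1 motif. At the other places the FOXA2 scores were 297 at 30.4 kb past the start site, 119 at 55.3 kb past it, 109 at 4.27 kb before it and 97 at 1.84 kb before it. With the vehicle FOXA2 list, JUN, FOSL1 and FOXA2 came together at 2 of the 24 JUN regions (8.33%), 4.26 and 1.88 kb before the PLAU start site, beside 6.56% of the whole JUN list. With the unlabelled lists it was 5 of 24 (20.8%, beside 6.29%) and 4 of 24 (16.7%, beside 5.83%), all at PLAU, where all FOSL1 regions of these genes lay.

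**Figure D2:**
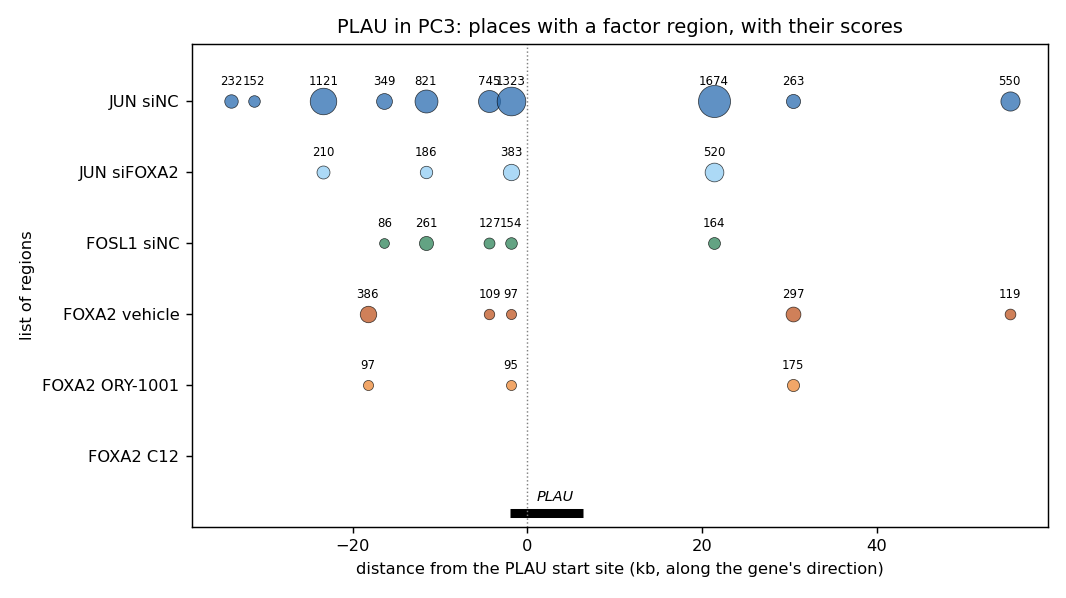
Places with a factor region around PLAU in PC3, by distance from the main start site in kb (x axis) and list (y axis), with circle area growing with the printed MACS2 score and the black bar marking the gene. JUN and FOSL1 have 10 and 5 regions with siNC, 4 JUN regions remain in the siFOXA2 list, and the C12 row is empty.

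After FOXA2 siRNA, the PC3 JUN list kept the 4 highest-scoring regions at PLAU, 1 region at PLAT, and none at the other genes. At the 9 genes, 5 of 24 regions were kept (20.8%, 95% Wilson interval 9.24 to 40.5), beside 13.4% of the whole JUN list. Without the PLAU window, 1 of 14 was kept (7.14%). With both lists cut to the same number of top regions 4 of 8 were kept (50%). No whole-list share at that cut is given here, so the 50% has no background to stand beside. The interval covers counting error only and contains the list's share. For regions drawn from the same deciles of score, the list kept 22.6%. The list as a whole went from 23890 to 4081 regions. Only 2 of the 9 genes still had a JUN region, beside 16.6% of coding genes.

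The kept PLAU regions stood out by score before the knockdown and had lower scores after it. At 21.4 kb past the start site the score was 1674 with siNC and 520 with siFOXA2. At 1.88 kb before it the score was 1323 and 383, at 23.4 kb before it 1121 and 210, and at 11.6 kb before it 821 and 186. The lost PLAU regions had scores of 152 to 745. At the 9 genes together the kept regions had a median score of 1121 (194 to 1674) and the lost ones 227 (39 to 745). A lost region is one that did not reach the list, and with depth unknown the remaining signal there cannot be stated.

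At these genes the kept share of JUN regions was read separately for those with and without a vehicle FOXA2 region. Of 9 JUN regions overlapping FOXA2, 2 were kept (22.2%, Wilson interval 6.32 to 54.7), and of 15 without FOXA2, 3 were kept (20%, 7.05 to 45.2). The intervals are wide and overlap, so a difference was not detectable with these numbers. Over the whole JUN list the shares were 18.3% of 10635 and 9.42% of 13255 regions. The split depends on the FOXA2 list, a check added after seeing the data. With unlabelled list 1, 5 of 18 JUN regions with FOXA2 and 0 of 6 without it were kept, and with unlabelled list 2, 4 of 15 and 1 of 9. Over the whole JUN list the shares with and without FOXA2 were then 12.9% and 14.2%, and 13% and 14%, which turns the order around. The vehicle FOXA2 list and the siNC JUN list come from different treatments and, by the folder named in their region identifiers, were processed apart.

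All 5 FOSL1 regions at PLAU were lost after siFOXA2 (0 of 5, Wilson interval 0 to 43.4), beside 6.9% of the whole FOSL1 list kept. Their scores with siNC were 261, 164, 154, 127 and 86. At 3 of the 5 places JUN was kept. The siFOXA2 FOSL1 list had a single region at the 9 genes, with a score of 13 at the minimum of its list, 25.1 kb past the PLAUR start site and beyond the end of the gene. So 1 of the 9 genes had a region in each FOSL1 list, beside 8.5% of coding genes with siFOXA2.

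**Figure D3:**
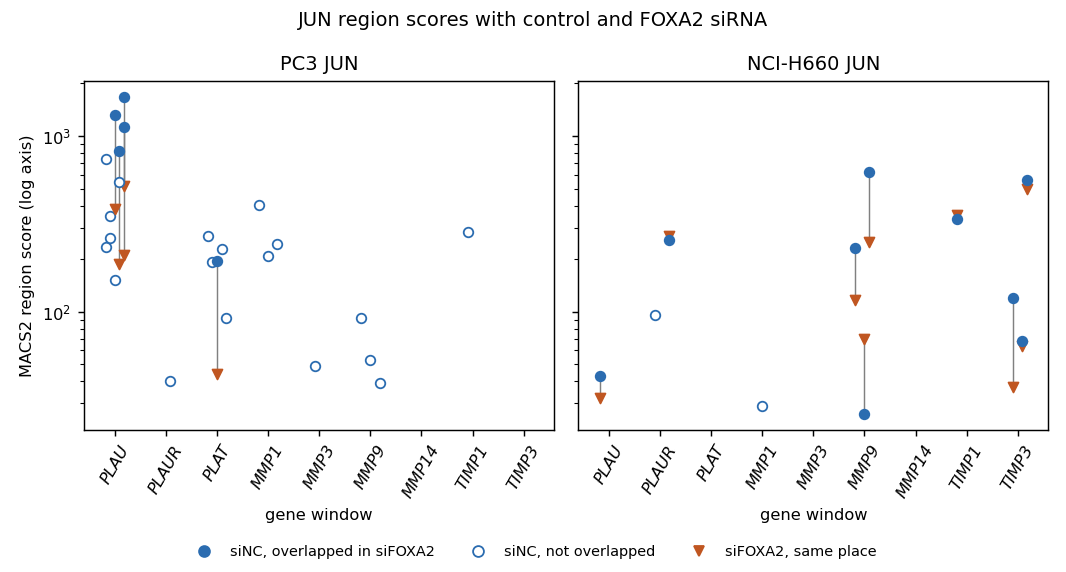
MACS2 scores of JUN regions (log axis) by gene window in PC3 (left) and NCI-H660 (right), with filled circles for siNC regions kept after siFOXA2, open circles for lost ones and triangles for the siFOXA2 score at the same place. The region shared by MMP1 and MMP3 is drawn at MMP1. In PC3 the kept regions are 4 at PLAU and 1 at PLAT, and in NCI-H660 9 of 11 are kept.

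PLAT, the other plasminogen activator gene, lies on chromosome 8 and had 5 JUN and 3 FOXA2 regions in PC3. It also had 20 H3K27ac regions, a number that 3.98% of coding genes reached. The JUN scores with siNC were 270 at 2.42 kb before the start site, 227 at 11.1 kb into the gene, 194 at 7.68 kb before the start site, 191 at 81.4 kb past it and 92 at 49.2 kb before it. The regions at 81.4 and 49.2 kb lie nearer to the start sites of AP3M2 and IKBKB. Only the region at 7.68 kb was kept after siFOXA2, with a score of 44. That place also had FOXA2, with scores of 230 with vehicle, 238 with ORY-1001 and 187 with C12. The siFOXA2 JUN list had 1 region at these genes that overlapped no siNC region, 26.3 kb before the PLAT start site with a score of 112 and 2 AP-1 motifs.

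Among the collagenase and stromelysin genes, MMP1 was the one member whose own start site lay under both JUN and FOXA2. The promoter region of MMP1 had a JUN score of 244 and a FOXA2 score of 175. Both unlabelled FOXA2 lists covered it too, with scores of 616 and 439. In the siFOXA2 list JUN was lost there, and under both inhibitors FOXA2 was lost there.
A second place in the MMP1 window, 14.2 kb from the start site and past the end of the gene, held JUN (score 208) and FOXA2 (score 371). It lies nearer to the start site of the neighbouring gene MMP10, at 3.3 kb, and distance alone does not assign it to MMP1. JUN was lost with siFOXA2, whereas FOXA2 was kept with scores of 228 under ORY-1001 and 491 under C12. Another place, 37.6 kb from the MMP1 start site and 20.1 kb from that of MMP10, had JUN (404) and FOXA2 (75). Both were lost in the treated lists. The promoter of MMP10, a further stromelysin next to MMP1, had FOXA2 alone (186) and 6 forkhead motifs over the region, and it was lost under both inhibitors.

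**Figure D4:**
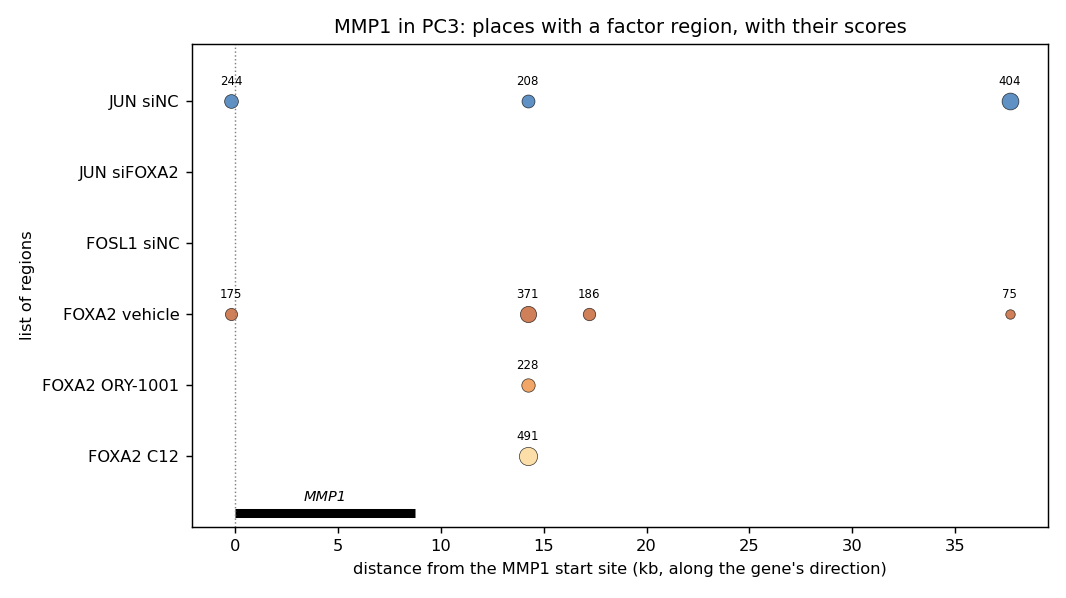
Places with a factor region around MMP1 in PC3, by distance from the start site in kb along the direction of transcription (x axis) and list (y axis), with circle area growing with the printed MACS2 score and the black bar marking the gene. JUN has 3 regions with siNC and none with siFOXA2, and FOXA2 remains with ORY-1001 and C12 at 1 of 4 places.

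JUN covered the main start site only at MMP1 and TIMP1, both in siNC PC3 cells. The PLAU region 1.88 kb upstream covered an alternative start site, with siNC and with siFOXA2. At MMP3 the JUN regions were the shared MMP1 promoter region and one in an intron of MMP12, the macrophage elastase gene (score 49), and neither was kept. TIMP1 had JUN at its start site (chrX:47441558-47441876, score 285), with accessible chromatin (2533) and H3K27ac (1677), and this region was lost after siFOXA2. It held none of the AP-1 letters searched, while the variant TGAGTAA or its reverse complement TTACTCA stood once, centred at −98 with the start site as 0. This variant stood within 100 bases of the centre of 10.5% of all siNC JUN regions in PC3. A match of letters is a description and not a measured site.

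At MMP9 and PLAUR the PC3 JUN regions had low scores and lay mostly at promoters of neighbours. The 3 JUN regions at MMP9 had scores of 92, 53 and 39, and all were lost after siFOXA2. The first lay at the promoter of ZNF335, 36.6 kb before the MMP9 start site. The JUN region at PLAUR had a score of 40, was lost, and lay at a promoter shared by IRGQ, SRRM5 and ZNF576, 73.9 kb from the PLAUR start site. FOXA2 had 1 region at PLAUR, 24.6 kb before the start site with a score of 66 and 3 forkhead motifs in the region, which was lost under both inhibitors. MMP14 had no JUN and 1 FOXA2 region, at the promoter of LRP10 next to it, with scores of 322 with vehicle, 159 with ORY-1001 and 137 with C12.

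With either inhibitor fewer FOXA2 regions were listed at these genes. With ORY-1001, 7 of 14 regions were kept (50%, Wilson interval 26.8 to 73.2), beside 36.8% of the whole list. With C12, 4 of 14 were kept (28.6%, 11.7 to 54.6), beside 29.6%. Without the PLAU window each list kept 4 of 9 (44.4%). With lists cut to the same number of top regions it was 6 of 8 (75%) with ORY-1001 and 3 of 5 (60%) with C12, without a whole-list share at that cut. The intervals for the uncut lists contain the whole list's share. At the members' score deciles the whole list kept 35.6% and 26.6%. A FOXA2 region remained at 4 of the 9 genes with ORY-1001, beside 38.9% of coding genes, and at 3 with C12, beside 28.7%. Neither treated list had a region at the 9 genes that the vehicle list lacked. The doses differed and both share the vehicle list, so the values stand side by side and the compounds were not compared.

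By gene, ORY-1001 kept 3 of 5 PLAU regions, with scores from 386 to 97 at 18.3 kb before the start site, from 297 to 175 at 30.4 kb past it and from 97 to 95 at 1.84 kb before it. C12 kept none of the 5. At PLAT both lists kept 2 of 3 regions, at MMP1 1 of 4 and at MMP14 1 of 1, while neither kept the regions at PLAUR and at the MMP1 promoter. Of the 14 regions, 4 were kept under both compounds, 3 under ORY-1001 alone, 0 under C12 alone and 7 under neither. In the whole list these classes held 24%, 12.8%, 5.63% and 57.5% of regions.

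**Figure D5:**
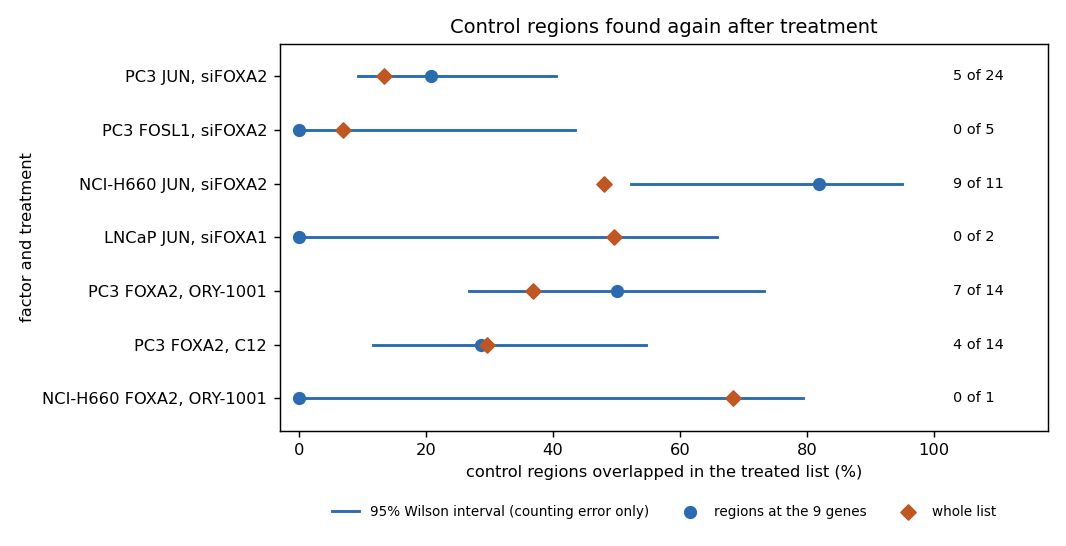
Share of control regions overlapped in the treated list (x axis, %) for each factor and treatment (y axis), with blue circles and bars for the 9 genes and their 95% Wilson intervals (counting error only) and orange diamonds for the whole list. For these uncut lists, only the NCI-H660 JUN interval (52.3 to 94.9) leaves out the whole list's share (48). Groups of 1, 2 and 5 regions have very wide intervals.

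In PC3, FOXA2 regions at these genes lay under JUN more often than not. JUN with siNC overlapped 9 of the 14 FOXA2 regions (64.3%, Wilson interval 38.8 to 83.7), beside 44.3% of the whole FOXA2 list and 43% at the members' score deciles. The list shares lie inside the interval. From the JUN side, 9 of 24 regions overlapped FOXA2 (37.5%), beside 44.5%. With the unlabelled FOXA2 lists, which are longer, it was 18 of 24 (75%, beside 66.9%) and 15 of 24 (62.5%, beside 61.7%), so the order against the whole list depends on the FOXA2 list used.

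In NCI-H660, JUN lay mostly at other places of the same genes, and the FOXA2 list had a single region there. The siNC JUN list had 11 regions at 6 of the 9 genes, beside 66.2% of coding genes, with 3 at MMP9, 3 at TIMP3, 2 at PLAUR and 1 each at PLAU, MMP1 and TIMP1. The vehicle FOXA2 list had 1 region at 1 gene, the LRP10 promoter beside MMP14 with a score of 88, beside 37.6% of coding genes. The ORY-1001 list had 0 regions at 0 genes, beside 35.5%. So 0 of 1 was kept (Wilson interval 0 to 79.3), beside 68.4% of the whole list. None of the 11 JUN regions overlapped FOXA2, beside 23.2% of the whole JUN list.

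Most NCI-H660 JUN regions were kept after siFOXA2. They numbered 9 of 11 (81.8%, Wilson interval 52.3 to 94.9), beside 48% of the whole list and 53.9% at the members' score deciles, which lies inside the interval. The siFOXA2 list was longer, with 59452 regions against 18401. With both lists cut to the same number of top regions 7 of 11 were kept (63.6%), without a whole-list share at that cut. With a score minimum of 50 it was 6 of 8 (75%), also without a whole-list share at that setting. The part of list length in the kept share was not tested further. The uncut siFOXA2 list held 18 regions at 7 of the 9 genes, beside 83.5% of coding genes. Of these 18, 9 overlapped no siNC region. Accessible chromatin of the line was present at 16 of the 18 (88.9%), beside 31.5% of the whole siFOXA2 list, and 2 of the 18 held an AP-1 motif (11.1%, beside 4.98%).

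The highest NCI-H660 JUN scores lay at neighbouring promoters and in an intron of TIMP3. At the ZNF335 promoter near MMP9 the score was 622 with siNC and 250 with siFOXA2, and at 15.3 kb before the MMP9 start site it was 230 and 117. At the SLC12A5 promoter near MMP9 it was 26 and 70. At the shared promoter near PLAUR it was 256 and 270, and at the SYN1 promoter near TIMP1 it was 337 and 353. These pairs moved in both directions. The regions lost were one at the PLAUR promoter (95) and one 51.1 kb from the MMP1 start site (29). MMP14 had no siNC JUN region and 3 after siFOXA2, with scores of 23, 25 and 41.

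TIMP3, an inhibitor gene, was nearly empty in PC3 and occupied in NCI-H660. In PC3 its window held 1 accessible region, with a score of 26, and no H3K27ac, JUN, FOSL1 or FOXA2 region. A single accessible region or more was found at 99.1% of coding genes, so TIMP3 stood at the low end. In NCI-H660 the window held 10 accessible regions, 7 H3K4me2 regions and 3 JUN regions. The JUN scores were 562 and 500 with siNC and siFOXA2 in an intron of SYN3 and TIMP3, with 1 AP-1 motif. They were 120 and 37 at 72.8 kb and 68 and 64 at 95.7 kb past the start site, both in introns of SYN3 as well, the gene that overlaps TIMP3. The PC3 and NCI-H660 JUN lists come from different processing folders, so folder and line cannot be told apart there.

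At the other 8 genes PC3 had more accessible regions than NCI-H660, as coding genes had in general. The median per coding gene was 15 in PC3 and 7 in NCI-H660, and over the 9 members it was 14 and 7. The ATAC-seq lists also come from different processing folders, so folder and line cannot be told apart here. Accessible regions numbered 27 in PC3 and 11 in NCI-H660 at PLAU, 24 and 6 at PLAT, 15 and 3 at MMP1 and 14 and 2 at MMP3. At MMP9 they numbered 20 and 8, at PLAUR 12 and 7, at MMP14 11 and 8 and at TIMP1 10 and 5. All 9 genes had at least 1 in either line, beside 99.1% and 95.9% of coding genes. H3K27ac in PC3 and H3K4me2 in NCI-H660 each lay at 8 of the 9, missing at TIMP3 and at MMP3, beside 92.5% and 94.7%. The PC3 list was the longer one, with 210960 against 99959 regions, and 39 of its 125 regions at these genes were also accessible in NCI-H660 (31.2%, Wilson interval 23.7 to 39.8). The whole list gave 21.5%, and 29% at the members' score deciles.

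JUN places were shared between PC3 and NCI-H660 in 3 of 24 cases (12.5%, Wilson interval 4.34 to 31), beside 12.8% of the whole PC3 list. Within 10 kb windows it was 0 of 9, and without the PLAU window 3 of 14 (21.4%). The 3 places were the ZNF335 promoter, the place 15.2 kb before MMP9 and the IRGQ, SRRM5 and ZNF576 promoter near PLAUR. Joining overlapping factor regions of all lists gave 75 places, of which 34 had a factor region in PC3 alone, 11 in NCI-H660 alone and 18 in LNCaP or its derivatives alone. PC3 had more factor lists than the other lines, among them the unlabelled FOXA2 lists of 77822 and 62714 regions. The part of this in the counts was not tested, and no share over all regions is given beside them. Of the 34 PC3 places 27 were accessible in PC3 and 4 in NCI-H660, and of the 11 NCI-H660 places 10 were accessible in NCI-H660 and 8 in PC3. The PC3 accessible list is the longer one, with 210960 against 99959 regions. No share over all such places is given beside these counts either, so they do not set these genes apart.

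The parental LNCaP JUN list was short, with 2421 regions. With siNC it had 2 regions, at 2 of the 9 genes, beside 13.4% of coding genes. They were the place 14.2 kb from the MMP1 start site, nearer to that of MMP10, and the MMP12 intron counted at MMP3. Both held an AP-1 motif and both were also under JUN in PC3. With siFOXA1 neither was kept (0 of 2, Wilson interval 0 to 65.8), beside 49.6% of the whole list, and 0 of the 9 genes had a region, beside 8.64% of coding genes.

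In LNCaP_FOXA2OE cells the FOXA2 list, short with 2500 regions and without scores, had no region at any of the 9 genes, beside 6.03% of coding genes. The JUN list had 14 regions at 7 of them, beside 79.5%, 6 of these at PLAT. None held the AP-1 letters near its centre, beside 2.38% of the whole list, and the highest score, 162, lay at the SYN1 promoter near TIMP1. LNCaP_FOXA2K265R JUN had 17 regions at 8 genes, beside 85%, and 1 held the AP-1 letters. Of the 14 FOXA2OE JUN regions 5 were also present with K265R (35.7%, Wilson interval 16.3 to 61.2), beside 37% of the whole list and 35.2% at the members' score deciles. With both lists cut to the same number of top regions it was 2 of 14 (14.3%), without a whole-list share at that cut. These lists came from a folder each, so folder and line cannot be told apart, and the lowest score was 30 and 23.

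A wider list of 41 further plasminogen, metalloproteinase and inhibitor genes was read the same way, some of them in windows that overlap those above. In PC3, 29 of the 41 had a JUN region with siNC and 13 with siFOXA2, beside 62.8% and 16.6% of coding genes. FOSL1 lay at 12 and 4, beside 17.4% and 8.5%. Of their 94 JUN regions 13 were kept (13.8%, beside 13.4% of the whole list) and of 15 FOSL1 regions 0 (beside 6.9%). FOXA2 lay at 25 with vehicle, 16 with ORY-1001 and 14 with C12, beside 54.1%, 38.9% and 28.7%. Of 70 FOXA2 regions 26 were kept with ORY-1001 (37.1%, beside 36.8%) and 20 with C12 (28.6%, beside 29.6%). In NCI-H660, JUN lay at 24 genes with siNC and 35 with siFOXA2, beside 66.2% and 83.5%, and 36 of 61 regions were kept (59%, beside 48%). With ORY-1001 18 of 29 FOXA2 regions were kept (62.1%, beside 68.4%). In LNCaP, 6 of 16 JUN regions were kept with siFOXA1 (37.5%, beside 49.6%). MMP16, a membrane-type metalloproteinase gene, had the most PC3 siNC JUN regions, 19, followed by MMP24 with 8 and ANXA2, a plasminogen-binding surface protein gene, with 7. MMP16 also had the most accessible regions of the 41, 55 in PC3 and 29 in NCI-H660. Windows grow with gene length, and these counts were not scaled by it. The 12 genes with none were SERPINA5, KLKB1, VTN, HPN, MMP2, MMP11, MMP15, MMP19, MMP26, MMP27, MMP28 and ADAM10.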

How the data were processed

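ChIP-seq and ATAC-seq regions of PC3, NCI-H660 and LNCaP cells were analysed as deposited. The submitters' processing notes name FastQC 0.11.9, BWA 0.7.17-r1188, SAMtools 1.9, MACS2 2.1.4 and the hg19 build. MACS2 settings, control libraries and pooling were not given in the sources used here. The authors deposited a whole-number score in 20 of 22 lists, read as 10 times the −log10 q-value from its range. The lists hold no counts or depth.

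Genes and start sites came from GENCODE 44 on this build (20163 coding genes), and regions within 50 kb of a gene body were joined to it. An overlap needed at least 1 bp. Shares carry 95% Wilson intervals, for counting error only. Motif shares count regions with a motif within 100 bp of the centre, and motif numbers given for a single region cover its whole length. These used Python 3.11.15, numpy 2.4.6 and pysam 0.24.0, after the overlap code had been tested on simulated data. Sequences are those of the GRCh37 reference. All 9 genes are named, with the highest-scoring kept, lost and new regions, and system genes with the most or no PC3 JUN regions. The genes and lists were chosen with earlier results of these data known. Alternatives were other windows, stricter overlap, a score minimum, equal list lengths and leaving out shared places. Leaving out PLAU was added after seeing the data. Some promoter sequences and genes are not reported here.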

Additional observations from a re-analysis of the deposited data

Results flagged for a closer look

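JUN regions at the 9 genes changed in number in opposite directions after FOXA2 siRNA in the lines. The siFOXA2 minus siNC difference was -18 in PC3 (24 and 6 regions) and 7 in NCI-H660 (11 and 18 regions). The difference between the lines was not tested, since each arm has 1 list. The whole JUN lists moved the same way, from 23890 to 4081 regions in PC3 and from 18401 to 59452 in NCI-H660, and the part of list length in the result was not tested.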

How the results depend on the processing

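Under the alternatives 92 values stayed within counting error or within 1.5 times the count, and 14 moved further. When both lists were shortened to the same number of top regions, the kept share was 50% for PC3 JUN after siFOXA2, 75% for FOXA2 with ORY-1001 and 60% with C12. The shared share was 43.6% for PC3 accessible regions in NCI-H660 and 14.3% for LNCaP_FOXA2OE JUN in K265R. No whole-list share at this setting is given, so these values cannot be set against the list. Requiring 50% of both regions to overlap gave 21.6% for the accessible regions. Without the PLAU window, chosen after seeing the data, 7.14% of PC3 JUN regions and 44.4% of FOXA2 regions with either inhibitor were kept, 21.4% of PC3 JUN places were shared with NCI-H660, and no FOSL1 region was left. With 10 kb windows the genes with a region numbered 4 for PC3 JUN, 3 for PC3 FOXA2, 3 for NCI-H660 JUN, 0 for NCI-H660 FOXA2 and 1 for LNCaP JUN, and PC3 JUN places shared with NCI-H660 came to 0%. With 100 kb windows 4 genes had NCI-H660 FOXA2. No share of coding genes at the 10 and 100 kb windows is given, so these gene counts have no background to stand beside. The cause of these moves was not tested beyond the smaller or larger number of regions each setting counts. LNCaP JUN had no value under the score and equal-length settings, since its siNC list has no score, and NCI-H660 FOXA2 none with 10 kb windows. No place at these genes was shared by 17 or more lists. No paired analysis was possible because each arm of a contrast has 1 list.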
